A study of Mus musculus with 5 samples.

Results

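Collagen chain genes were examined in RNA sequencing of sorted dermal group 2 innate lymphoid cells (dILC2s), lymphocytes of skin that lack rearranged antigen receptors. The members were the rows of the count table whose symbol has the form of a collagen chain gene (Col, the collagen type, a, the chain number), without *Col7a1* and *Col17a1*, which encode chains of the structures that anchor epidermis to dermis. This gave 42 genes of 47729 in the table, made up of 11 fibrillar collagens, 8 basement membrane collagens and 23 others. The cells came from skin of female C57BL/6 mice aged 8 to 13 weeks and were not stimulated after the sort. The wild-type (WT) group held 3 pools (5, 6 and 13), each of 10 mice by the study's methods. The *Rag1*-/- group held 2 pools (2 and 7), each of 9 mice by the methods, while the labels count 16 *Rag1*-/- mice in all. *Rag1* encodes part of the recombinase that rearranges antigen receptor genes, and mice without it have no mature T and B cells. For cell type, the labels name the *Rag1*-/- samples type 3 and the WT samples type 2 innate lymphoid cells, whereas their protocol text calls all of them dILC2s.

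Collagens are triple helices of chains rich in glycine and proline. Fibrillar collagens form the tensile fibres of dermis and are made mainly by fibroblasts. Type IV collagens form the sheet-like network of basement membranes under epithelia and around vessels, and the remaining families coat fibrils, form microfibrils or short networks, or span the cell membrane. Lymphocytes are not known as a main source of these chains.

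The WT libraries held 32939428 to 39477243 counts on genes, pool 2 held 8050562 and pool 7 held 38922750. Levels are given as CPM, the count divided by the total count of its library times 1000000, always in the order WT pools 5, 6, 13 and then *Rag1*-/- pools 2, 7. A level that 3 counts give was 0.373 CPM in pool 2 and 0.0771 CPM in pool 7. For the targeted gene *Rag1*, 4, 0 and 5 reads were counted in WT against 5 and 48 in the libraries labelled *Rag1*-/-. Its count was therefore not lower there, where the reads lie relative to the deleted part was not analysed, and each direction given here follows the labels. "*Rag1*-/- pool" stands for a library labelled so.

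Marker genes of several cell types were present in all libraries. The summed level of 20 leukocyte genes was 941 to 2238 CPM in WT and 6163 to 7117 CPM in the *Rag1*-/- pools, and that of 14 ILC2 genes 1431 to 2705 CPM and 4454 to 6846 CPM. The sum over 15 keratinocyte genes was 28490 to 40299 CPM in WT and 7161 to 17352 CPM in the *Rag1*-/- pools. Over 15 fibroblast genes other than collagens it was 6137 to 9569 CPM and 7525 to 8078 CPM. No gene of these 4 lists was at 0 in any library. In such bulk RNA, fewer cells of a type and less RNA per cell cannot be told apart.

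All 42 collagen genes had enough counts to be tested, and 12 of them had a mean level under 10 CPM. *Col19a1* passed the filter on low counts only through the WT libraries. Genotypes were compared over 19011 genes with edgeR's quasi-likelihood test. A gene was called at a Benjamini-Hochberg adjusted p under 0.05 with an absolute log2 fold change (*Rag1*-/- over WT) above 1, and ± beside a log2 fold change is its standard error. Of the 42 genes, 2 were called lower and none higher in *Rag1*-/-. Both are basement membrane collagens, *Col4a6* and *Col4a5*. They are 4.76% of the members, where 2.16% of all genes tested were called lower and 3.57% higher. An unadjusted p under 0.05 was found for 6 of the 42, against 26.4% of all genes. The median log2 fold change was -0.02 for the members and 0.02 for all genes. The levels of both groups did not overlap in 9 members (21.4%), against 45.9% of all genes. Of these 9, 7 were lower (16.7% of the members, against 24.0% of all genes) and 2 higher (4.76%, against 21.9%). The 7 include *Col19a1* and the 2 include *Col26a1*, genes with few counts from which nothing is drawn below. *Col19a1* is also among the 6 with an unadjusted p under 0.05.

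**Figure D1:**
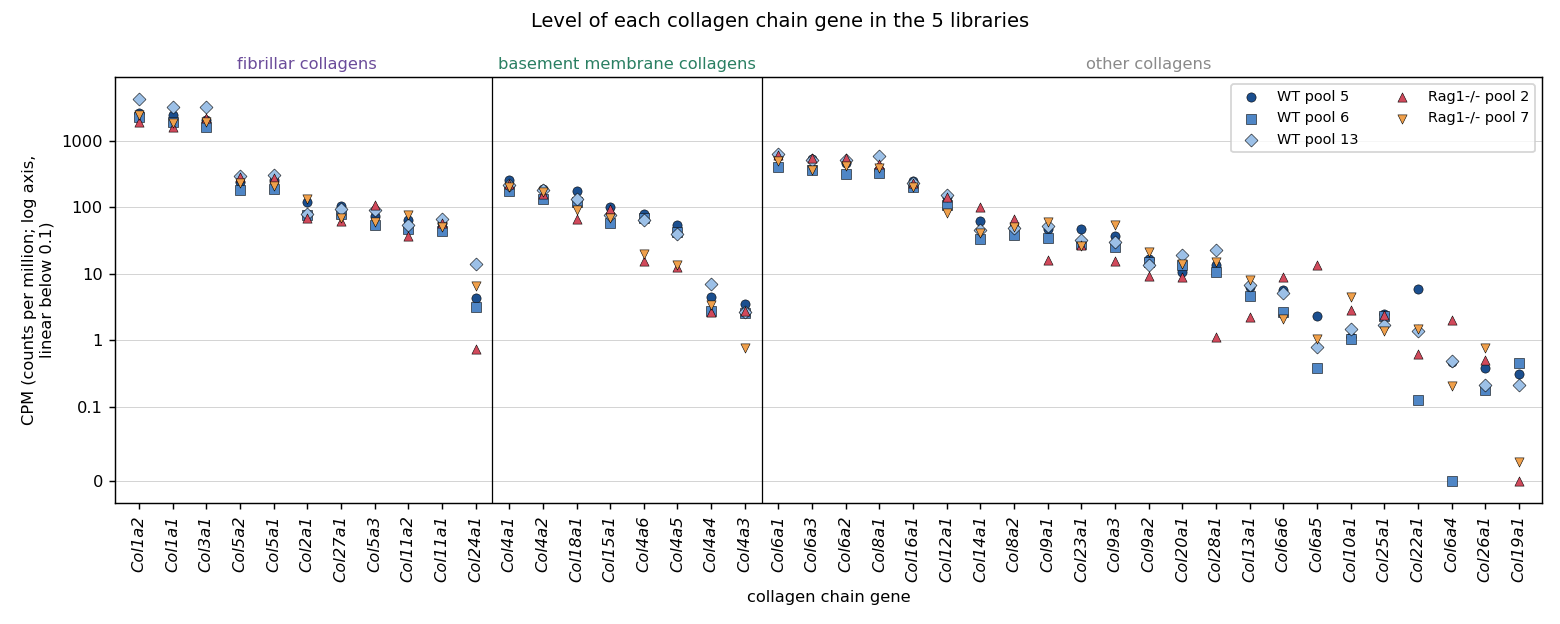
CPM (log axis, linear below 0.1) of the 42 collagen chain genes, ordered by level within the fibrillar, basement membrane and other collagens, with a symbol for each of the 5 libraries. Both *Rag1*-/- symbols sit clearly below the WT symbols for *Col4a6* (15.8 and 19.7 CPM against 64.3 to 77.8 CPM) and *Col4a5* (12.4 and 13.3 CPM against 39.6 to 54.0 CPM).

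*Col4a6* and *Col4a5* encode the α6 and α5 chains of type IV collagen, which assemble with each other in the basement membrane under the epidermis. They lie head to head on chromosome X of GRCm38, *Col4a6* on the minus strand (141165403 to 141474076) and *Col4a5* on the plus strand (141475385 to 141689234), with 1308 bases between them. The sequence upstream of each start is shown because these neighbours are the only called members. The stretches come from RefSeq windows of 250 bases before the start site (GRCm38.p6), are written 5′ to 3′ on the strand of the gene, and stop where an exon of the GENCODE annotation begins. For *Col4a6* this is the whole window, chrX:141474077-141474326 on the minus strand (250 bases, 47.6% of them G or C). For *Col4a5* it is chrX:141475169-141475384 on the plus strand (216 bases, 52.3% of them G or C), without the 34 bases of its window that lie in an annotated exon. Capitals mark a motif.
Col4a6: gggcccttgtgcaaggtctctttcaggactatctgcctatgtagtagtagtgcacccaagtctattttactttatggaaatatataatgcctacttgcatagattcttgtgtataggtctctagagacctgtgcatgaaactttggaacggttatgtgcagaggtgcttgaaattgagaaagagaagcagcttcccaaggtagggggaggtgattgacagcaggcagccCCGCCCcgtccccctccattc
Col4a5: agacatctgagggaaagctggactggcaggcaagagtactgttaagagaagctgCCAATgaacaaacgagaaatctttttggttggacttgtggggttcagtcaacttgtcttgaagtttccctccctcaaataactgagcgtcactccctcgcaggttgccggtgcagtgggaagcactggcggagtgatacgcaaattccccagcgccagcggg

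Common promoter motifs were searched on both strands. In the *Col4a6* stretch the capitals are a GC box (GGGCGG, read from the other strand). In the *Col4a5* stretch they are a CCAAT box (CCAAT), and the 34 bases not printed hold 1 GC box, so that the whole *Col4a5* window has both motifs. Of 32851 whole windows of 250 bases in the table, 32.7% held the GC box and 33.9% the CCAAT box. The TATA box (TATAAA, in 12.4% of all windows) and the AP-1 motif (TGANTCA, in 6.75%) were in neither whole window, and the motifs found did not overlap. A window was listed for 33 of the 42 members.

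*Col4a6* stood at 77.8, 69.9 and 64.3 CPM in the WT pools and at 15.8 and 19.7 CPM in the *Rag1*-/- pools. These levels rest on 3019, 2758 and 2118 counts and on 127 and 765 counts. Both *Rag1*-/- pools were below every WT pool, and the gap was wider than the spread within either group. The means were 70.7 ± 6.79 CPM (SD, 3 pools) and 17.7 ± 2.74 CPM (SD, 2 pools). In the edgeR fit, with its own scaling of the libraries, *Col4a6* was 3.87-fold lower in *Rag1*-/- (log2 fold change -1.95 ± 0.22, adjusted p = 0.0306). This is the smallest adjusted p of the whole fit, and *Col4a5* and other genes share it. The unadjusted p was 4.28e-05 for *Col4a6* and 0.000102 for *Col4a5* (edgeR).

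*Col4a5* stood at 54.0, 42.1 and 39.6 CPM in WT and at 12.4 and 13.3 CPM in *Rag1*-/-. Again both *Rag1*-/- pools were below every WT pool. The means were 45.2 ± 7.71 CPM and 12.9 ± 0.609 CPM (SD), and the edgeR fit gave a 3.43-fold lower level (log2 fold change -1.78 ± 0.23, adjusted p = 0.0306). Per kilobase of exon, *Col4a5* had 0.715 to 0.934 times the level of *Col4a6* in the 5 libraries, and this ratio overlapped between the groups.

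The call of both genes depended on which pool was left out. Without any 1 of the WT pools, or without *Rag1*-/- pool 2, no gene of the whole table was called (0.0% lower). *Col4a6* then changed by -2.02 to -1.77 and *Col4a5* by -1.87 to -1.64 on the log2 scale, with adjusted p-values from 0.0543 to 0.109 (edgeR). Without pool 7 both were called, *Col4a6* at -2.22 (adjusted p = 0.0124) and *Col4a5* at -1.92 (adjusted p = 0.0168), where 7.98% of all genes were called lower. Both were also called lower with RLE scaling (2.26% of all genes), library size alone (2.56%), DESeq2 (6.93%), no filter on low counts (4.98%) and limma on the deposited signal (2.86%). When libraries were scaled to the leukocyte genes, 38 of the 42 collagen genes were called lower, beside 67.4% of all genes.

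*Col4a1* and *Col4a2* encode the α1 and α2 chains, which form the type IV network of most basement membranes, vessel walls included. They also lie head to head, on chromosome 8, where their annotated ends overlap by 22 bases. The library kit did not keep strand, so that reads in this overlap fit both genes. *Col4a1* stood at 255, 172 and 213 CPM in WT and at 226 and 199 CPM in *Rag1*-/-. *Col4a2* stood at 190, 131 and 178 CPM in WT and at 157 and 166 CPM in *Rag1*-/-. In both genes the *Rag1*-/- pools fell inside the WT range. The log2 fold change was 0.03 for *Col4a1* (95% interval -0.50 to 0.55, adjusted p = 0.962, edgeR) and -0.00 for *Col4a2* (-0.52 to 0.51, adjusted p = 0.995). These intervals exclude a change of 2-fold either way and do not reach those of *Col4a6* (-2.47 to -1.43) and *Col4a5* (-2.32 to -1.24). The sign of both values close to 0 changed with the scaling or with a library left out.

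Set against *Col4a1* of the same library, per kilobase of exon, *Col4a6* had 0.285, 0.379 and 0.283 times its level in WT and 0.0653 and 0.0926 times in *Rag1*-/-. *Col4a5* had 0.235, 0.271 and 0.206 times the level of *Col4a1* in WT and 0.0610 and 0.0742 times in *Rag1*-/-. The balance of the α5 and α6 chains with the α1 chain was thus apart between the groups on a measure that does not depend on how libraries are scaled. It rests on the same counts as the values above and is no separate test.

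The α3 and α4 chains, encoded by *Col4a3* and *Col4a4* and known from kidney, were scarce. The genes stand head to head on chromosome 1 with 71 bases between them. *Col4a3* stood at 3.45, 2.58 and 2.64 CPM in WT and at 2.73 and 0.771 CPM in *Rag1*-/- (log2 fold change -0.80 ± 0.58, adjusted p = 0.435, edgeR). *Col4a4* stood at 4.43, 2.74 and 7.01 CPM in WT and at 2.61 and 3.37 CPM in *Rag1*-/- (-0.60 ± 0.47, adjusted p = 0.470). Both overlapped between the groups. With 22 and 30 counts for *Col4a3* and 21 and 131 counts for *Col4a4* in the *Rag1*-/- pools, the intervals of both genes include no change as well as a change of 2-fold.

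*Col18a1* and *Col15a1* encode the multiplexins, collagens of the basement membrane zone, and cleavage of the collagen XVIII chain releases endostatin. *Col18a1* stood at 177, 121 and 131 CPM in WT and at 65.7 and 91.3 CPM in *Rag1*-/-. The groups did not overlap, and the difference did not pass (log2 fold change -0.82 ± 0.26, adjusted p = 0.104, edgeR). It was called with pool 2 as the lone *Rag1*-/- library (-1.18) and not with pool 7 as the lone one (-0.57). Without any 1 of the WT pools it was not called (adjusted p from 0.174 to 0.248, edgeR). *Col15a1* stood at 58.5 to 100.3 CPM in WT and at 92.8 and 69.9 CPM in *Rag1*-/-, with a log2 fold change of 0.08 (95% interval -0.53 to 0.70). Over the 8 basement membrane collagens the median log2 fold change was -0.70. Their summed level was 861, 600.2 and 712 CPM in WT and 575 and 563 CPM in *Rag1*-/-.

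Laminins, nidogens, perlecan, agrin and peroxidasin build basement membranes together with type IV collagen. Of 16 such genes, 5 were called lower and none higher (2.16% of all genes were called lower), with a median log2 fold change of -0.53. *Lama3* and *Lamb3* encode the α3 and β3 chains of laminin-332, the main laminin under the epidermis. *Lama3* stood at 251, 219 and 189 CPM in WT and at 63.5 and 55.0 CPM in *Rag1*-/- (-1.86 ± 0.22, adjusted p = 0.0306, edgeR). *Lamb3* changed by -1.28 (adjusted p = 0.0329). *Lama5*, the α5 chain of laminins of many epithelia and vessels, changed by -1.47 (adjusted p = 0.0368), and *Agrn*, which encodes the proteoglycan agrin, by -1.11 (adjusted p = 0.0457, edgeR). In each of these 4 genes both *Rag1*-/- pools were below every WT pool. *Lamc1*, the γ1 chain of most other laminins, stood higher in both *Rag1*-/- pools and did not pass (0.77, adjusted p = 0.0709).

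**Figure D2:**
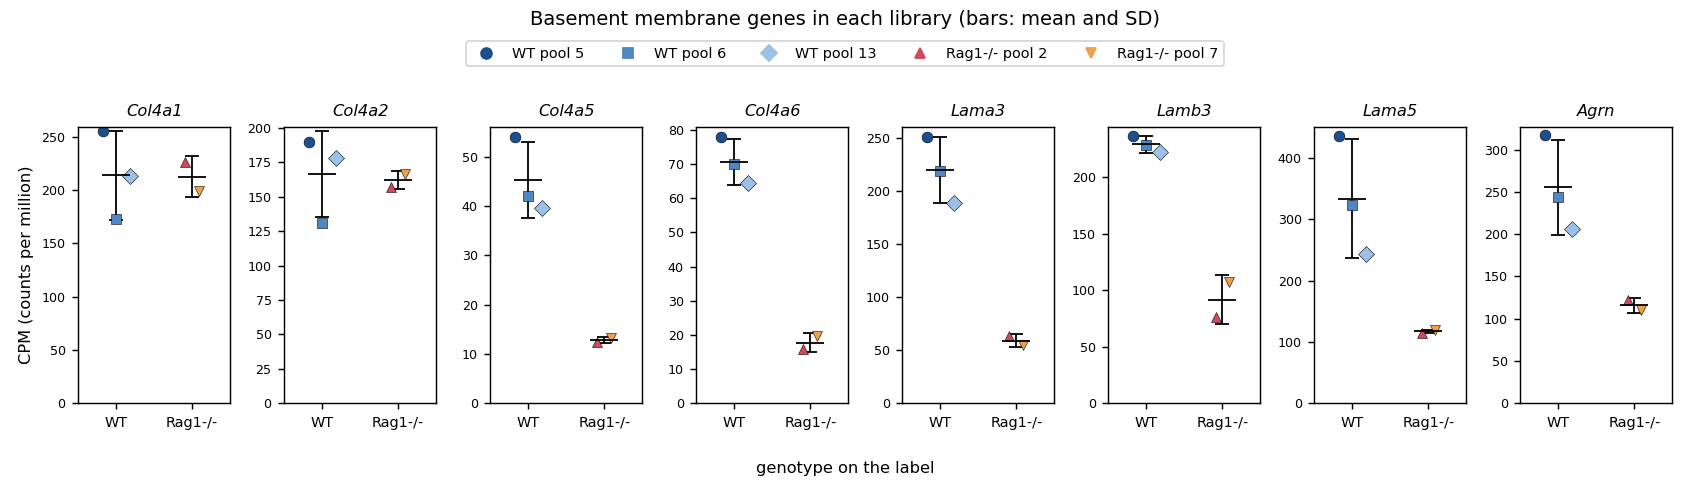
CPM (linear axes from 0) of 4 type IV collagen genes and 4 called partner genes of the basement membrane, with a point for each of the 5 libraries and bars for the mean and SD (3 WT pools, 2 *Rag1*-/- pools). *Col4a1* and *Col4a2* overlap between the groups, and the other 6 genes are lower in both *Rag1*-/- pools, as *Lama3* is at 63.5 and 55.0 CPM against 189 to 251 CPM.

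Keratinocytes produce the α5 and α6 chains and laminin-332. All 15 genes of the keratinocyte list had negative log2 fold changes, with a median of -1.33, and 5 were called lower, against 2.16% of all genes. The smallest p-values were those of *Dsg3*, a desmosomal cadherin (-1.87, adjusted p = 0.0306), and *Trp63*, a transcription factor of basal keratinocytes (-1.83, adjusted p = 0.0306, edgeR). Per 1000 counts summed over the keratinocyte list, a measure chosen after the values were seen, *Col4a6* had 1.93, 2.15 and 2.26 in WT and 2.20 and 1.13 in *Rag1*-/-. *Col4a5* had 1.34, 1.29 and 1.39 in WT and 1.73 and 0.765 in *Rag1*-/-. On this measure pool 2 was inside the WT range for *Col4a6* and above it for *Col4a5*, and pool 7 was below WT for both. The sum is weighted to abundant genes such as *Krt10*. That gene stood at 11278, 7310 and 5266 CPM in WT and at 475 and 4140 CPM in *Rag1*-/-. *Trp63* differed less between pools 2 and 7 (71.5 and 97.0 CPM), so the place of these pools depends on the genes summed. Per 1000 counts of the fibroblast list, *Col4a6* had 9.24, 11.4 and 6.72 in WT and 1.95 and 2.61 in *Rag1*-/-, without overlap.

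The fibrillar collagens held 66.3% to 76.3% of the collagen counts of each library, and none of the 11 genes was called. *Col1a1* and *Col1a2* encode the chains of type I collagen and *Col3a1* the chain of type III collagen, the main fibre-forming collagens of dermis. Per kilobase of exon they were the 3 highest of the 42 genes. *Col1a1* stood at 2421, 1934 and 3195 CPM in WT and at 1607 and 1848 CPM in *Rag1*-/-. Both *Rag1*-/- pools were below the lowest WT pool, by less than the WT pools differed among themselves (log2 fold change -0.51 ± 0.29, 95% interval -1.19 to 0.18, adjusted p = 0.323, edgeR).

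*Col1a2* stood at 2647, 2304 and 4195 CPM in WT and at 1918 and 2461 CPM in *Rag1*-/- (-0.44 ± 0.33, adjusted p = 0.461). *Col3a1* stood at 2058, 1631 and 3232 CPM in WT and at 2176 and 1878 CPM in *Rag1*-/- (-0.15 ± 0.33, adjusted p = 0.819, edgeR). Both overlapped between the groups, and WT pool 13 was the highest library for all 3 genes. Without WT pool 13 the log2 fold change of *Col3a1* was 0.16 (adjusted p = 0.842). Per kilobase of exon, *Col1a1* had 1.42 to 1.73 times the level of *Col1a2*, with overlap between the groups. *Col3a1* had 0.568, 0.564 and 0.676 times the level of *Col1a1* in WT and 0.905 and 0.679 times in *Rag1*-/-, without overlap.

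Fibroblast genes other than collagens had a median log2 fold change of 0.14 with no call among 15. The smallest p-values belonged to *Dpt*, dermatopontin (0.62, adjusted p = 0.294), and *Pi16*, a gene of adventitial fibroblasts (1.14, adjusted p = 0.303, edgeR). Per 1000 counts of this list, *Col1a1* had 287, 315 and 334 in WT and 199 and 246 in *Rag1*-/-, without overlap. *Col3a1* had 244, 266 and 338 in WT and 269 and 249.5 in *Rag1*-/-, with overlap. This sum too is weighted to abundant genes, which were not alike. *Sparc* stood at 1246 and 2123 CPM in *Rag1*-/- pools 2 and 7, and *Postn* at 1257 and 372 CPM. The place of these pools therefore depends on the genes summed here as well.

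Type V collagen nucleates type I fibrils. Its chain genes *Col5a1*, *Col5a2* and *Col5a3* had log2 fold changes of -0.02, 0.16 and 0.23, with 95% intervals inside a 2-fold change. *Col27a1*, a fibrillar chain known from cartilage, stood at 78.1 to 104 CPM in WT and at 61.5 and 68.4 CPM in *Rag1*-/-, without overlap (-0.47 ± 0.20, adjusted p = 0.194, edgeR). In all, the intervals of 8 of the 11 fibrillar genes excluded a change of 2-fold either way.

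Type II and type XI collagens form the fibrils of cartilage. *Col2a1* stood at 121, 76.7 and 78.1 CPM in WT and at 67.8 and 132 CPM in *Rag1*-/- (0.17 ± 0.35, adjusted p = 0.810, edgeR). Its lowest and its highest library were thus both labelled *Rag1*-/-. *Col11a2* had the same order, with 36.4 CPM in pool 2 and 75.7 CPM in pool 7, and *Col11a1* did not, with 58.6 and 50.5 CPM.

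Among the 23 other collagens none was called, and the median log2 fold change was -0.01. Type VI collagen forms beaded microfibrils around cells, and 3 of its chain genes had the highest mean CPM of this group over the 5 libraries. Per kilobase of exon *Col6a1* was the highest, and *Col8a1* stood above *Col6a2* and *Col6a3* (54.1, 53.7 and 38.6 CPM per kilobase). *Col6a1* stood at 583, 396 and 625 CPM in WT and at 603 and 502 CPM in *Rag1*-/-. *Col6a2* stood at 454, 319 and 508 CPM in WT and at 542 and 414 CPM in *Rag1*-/-. *Col6a3* stood at 522, 368 and 512 CPM in WT and at 541 and 366 CPM in *Rag1*-/-. All 3 overlapped between the groups, with log2 fold changes of 0.08, 0.19 and -0.01 and intervals inside a 2-fold change. *Col8a1*, a short-chain collagen of vessels and cornea, stood at 323 to 597 CPM in WT and at 444 and 385 CPM in *Rag1*-/- (-0.02 ± 0.30).

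Some scarce genes of this group differed more and did not pass. *Col10a1*, the short-chain collagen of hypertrophic cartilage, was counted 44, 41 and 49 times in WT against 23 and 174 times in *Rag1*-/-, which is 1.13, 1.04 and 1.49 CPM against 2.86 and 4.47 CPM. The groups did not overlap (1.65 ± 0.42, adjusted p = 0.0648, edgeR). It was called higher with DESeq2 (adjusted p = 0.00618), where 6.78% of all genes were called higher, and with edgeR on all genes that had a count (adjusted p = 0.0399), where 3.87% were. The gene lies within *Nt5dc1*, which had 4841 counts over the libraries against 331 for *Col10a1*, and reads of overlapping genes were not told apart by strand, so its level is uncertain.

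*Col19a1*, a fibril-associated chain, was counted 12, 18 and 7 times in WT against 0 and 1 in *Rag1*-/-. It was not called, and since only its WT counts brought it past the filter, nothing is drawn from its difference. *Col6a5*, a minor type VI chain, stood at 2.32, 0.380 and 0.789 CPM in WT and at 13.3 and 1.03 CPM in *Rag1*-/-. Its log2 fold change of 2.58 ± 1.07 (adjusted p = 0.179) rested on pool 2, since it was -0.10 without that pool. *Col26a1* was counted 15, 7 and 7 times in WT against 4 and 30 in *Rag1*-/-, which is too few to show a difference.

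**Figure D3:**
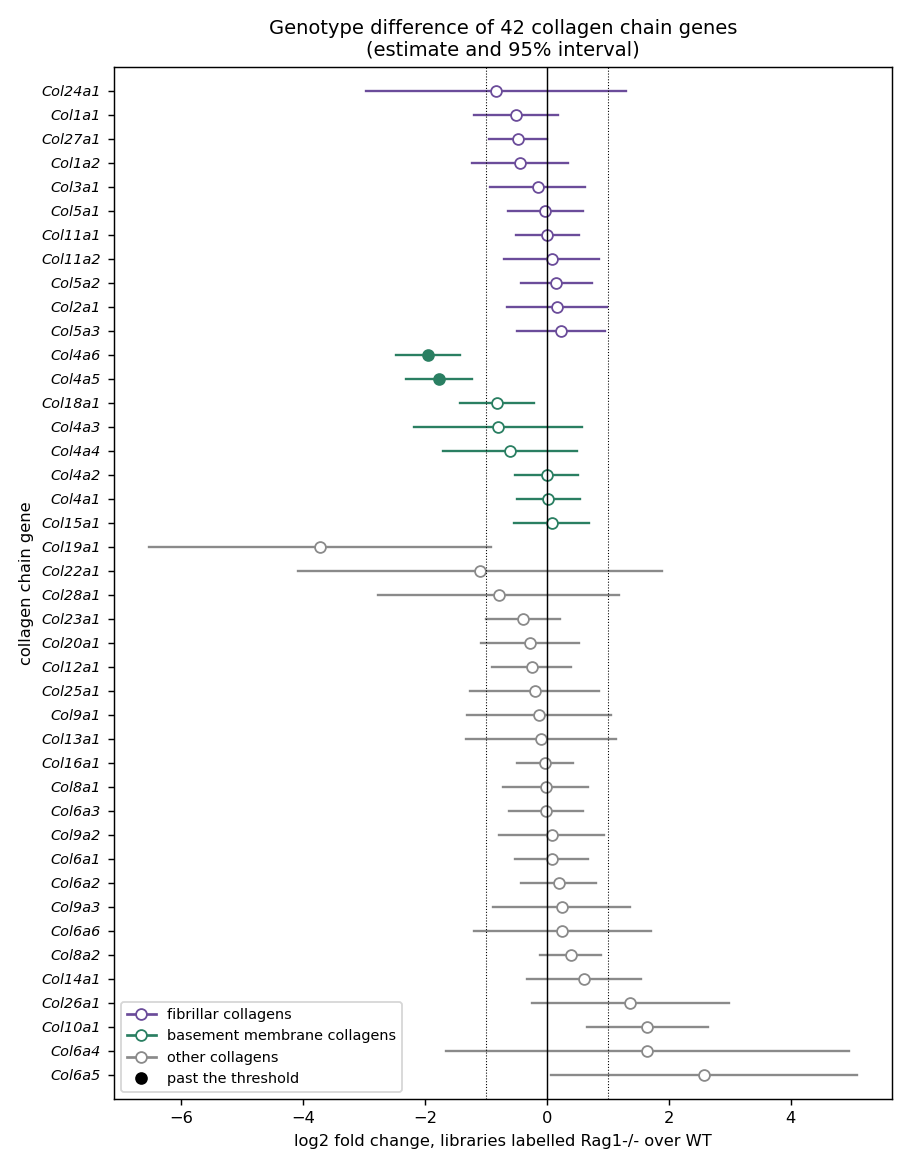
Log2 fold change (libraries labelled *Rag1*-/- over WT) of the 42 collagen chain genes with the 95% interval of the edgeR fit, by group, with filled points for called genes and dotted lines at a 2-fold change. The filled points are *Col4a6* at -1.95 and *Col4a5* at -1.78, and 20 of the 42 intervals lie between the dotted lines.

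The *Rag1*-/- pools differed from each other in many collagen genes. By 95% exact binomial intervals, which cover counting error only, the ratio of pool 2 to pool 7 was above 1 in 19 genes, below 1 in 15 and not apart from 1 in 8. The share over all genes was not computed, so these counts show nothing particular to collagens. *Col28a1*, known from peripheral nerve, had 9 counts in pool 2 and 593 in pool 7, a ratio of 0.0734 (0.0334 to 0.140), and stood at 10.5 to 22.7 CPM in WT. The sum over 8 Schwann cell genes was 241 CPM in pool 2, 949.7 CPM in pool 7 and 588 to 760.5 CPM in WT. None of these 8 genes was called between genotypes, with *Ncmap* at 0.87 (adjusted p = 0.0961, edgeR). *Col24a1*, a minor fibrillar chain, had 6 and 254 counts in pools 2 and 7 (ratio 0.114, 0.0415 to 0.252).

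Type IX collagen sits on the fibrils of cartilage. Its chain genes *Col9a1*, *Col9a2* and *Col9a3* had ratios of 0.269, 0.437 and 0.290, beside 0.512 for *Col2a1* and 0.481 for *Col11a2*. The sum over 10 cartilage genes other than collagens was 724 CPM in pool 2, 934 CPM in pool 7 and 691 to 870.1 CPM in WT. Within this list *Acan* stood at 56.3 and 162 CPM in pools 2 and 7. *Chad*, *Matn4* and *Matn1* were higher in pool 2, and the other genes of the list were lower there. Of the 9 that were tested, *Sox9*, which hair follicle cells express as well, was called lower (-1.23, adjusted p = 0.0376), and *Chad* came next (0.42, adjusted p = 0.289, edgeR). Without pool 7, with pool 2 as the lone *Rag1*-/- library, *Col9a1* (-1.49) and *Col28a1* (-3.84) were called lower. Without pool 2 their log2 fold changes were 0.53 and 0.05, and with both pools -0.13 and -0.79 without a call.

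Higher in pool 2 were *Col6a5*, *Col6a4* and *Col6a6*, type VI chain genes that are neighbours on chromosome 9, with ratios of 12.9 (8.92 to 19.1), 9.67 (3.90 to 26.1) and 4.24 (3.04 to 5.90). *Col14a1*, a fibril-associated collagen of dermis, stood at 101 CPM in pool 2 and 41.4 CPM in pool 7 (2.45, 2.25 to 2.67). The summed fibroblast list stood at 8078 and 7525 CPM in the same pools, but its genes were not alike. *Pi16* stood at 142 and 28.8 CPM in pools 2 and 7, *Postn* at 1257 and 372 CPM and *Sparc* at 1246 and 2123 CPM. *Sparc*, *Gsn* and *Twist2* were lower in pool 2, and the other genes of the list were higher there. *Col4a5* did not differ between pools 2 and 7 beyond counting error (0.935, 0.747 to 1.16) and *Col4a6* differed little (0.803, 0.660 to 0.970).

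**Figure D4:**
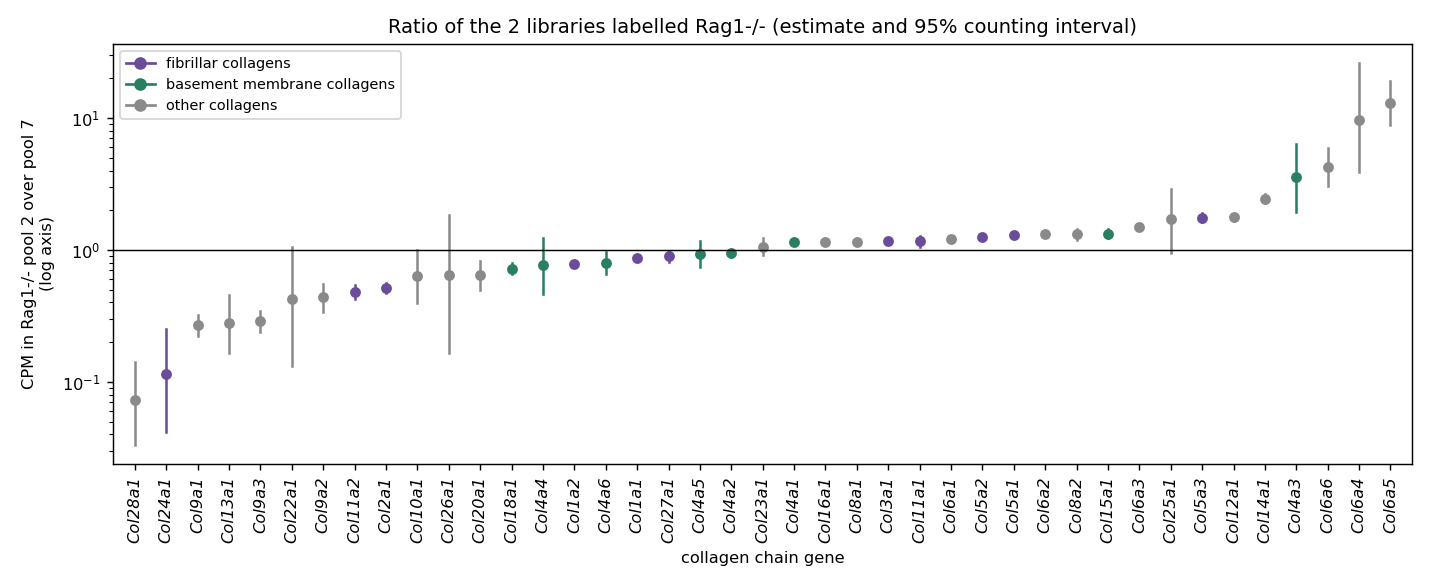
Ratio of the CPM in *Rag1*-/- pool 2 to that in pool 7 (log axis) for 41 collagen chain genes with 95% counting intervals, ordered by the ratio. *Col19a1*, with no count in pool 2, is not drawn, and the ratios run from 0.0734 for *Col28a1* to 12.9 for *Col6a5*, with *Col4a5* at 0.935.

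The WT pools differed as well. Pool 6 was the lowest WT pool in 36 of the 42 genes, and the highest was pool 5 in 22 and pool 13 in 19. Pool 5 was the highest of all 5 libraries in 7 of the 8 basement membrane collagens, and pool 13 in 7 of the 11 fibrillar collagens. Such counts were not made over all genes, so none is shown to be particular to collagens. Pool 5 also had the highest keratinocyte sum (40299 CPM) and the lowest leukocyte sum (941 CPM). Together the 42 genes took 1.15%, 0.906% and 1.52% of the counts in WT and 0.995% and 0.983% in *Rag1*-/-, with overlap.

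Collagen chains need dedicated enzymes and chaperones before they form fibres. Of 26 genes for these steps, 1 was called higher and 2 lower (5.73% of all genes were called in either direction), with a median log2 fold change of 0.14. *P3h2*, a prolyl 3-hydroxylase that acts on type IV collagen, stood at 64.8, 54.3 and 47.0 CPM in WT and at 20.1 and 21.2 CPM in *Rag1*-/- (-1.39 ± 0.22, adjusted p = 0.0306). *Adamts14*, which removes the N-propeptide of procollagen, stood at 98.1, 89.0 and 71.9 CPM in WT and at 33.2 and 32.3 CPM in *Rag1*-/- (-1.37 ± 0.21, adjusted p = 0.0306). *Colgalt2*, a collagen galactosyltransferase, stood at 7.99, 17.4 and 13.5 CPM in WT and at 51.3 and 32.4 CPM in *Rag1*-/- (1.71 ± 0.36, adjusted p = 0.0401, edgeR). The groups of all 3 genes were apart.

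Of 13 tested genes for collagen breakdown none was called, and their median log2 fold change was -0.20. The smallest p-values were those of *Mmp13*, a collagenase (-1.13, adjusted p = 0.0618), and *Timp1*, an inhibitor of such proteases (0.76, adjusted p = 0.131, edgeR). Of 9 tested collagen receptors, with a median of -0.38, 1 was called lower, against 2.16% of all genes. This was *Itga2*, a chain of a collagen-binding integrin, at 65.5, 66.1 and 45.3 CPM in WT and at 26.2 and 19.9 CPM in *Rag1*-/- (-1.33 ± 0.26, adjusted p = 0.0360). *Adgrg1*, an adhesion receptor that binds type III collagen, followed at -0.83 (adjusted p = 0.0850, edgeR).

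Endothelial genes summed to 491 to 852 CPM in WT and to 253 and 527 CPM in *Rag1*-/- pools 2 and 7. All 12 genes had negative log2 fold changes, with a median of -0.53. None of them was called, with *Kdr* at -1.07 (adjusted p = 0.0877) and *Flt1* at -1.04 (adjusted p = 0.183, edgeR). Mural cells lie around vessels and make type IV collagen. Their 8 genes summed to 363 to 654 CPM in WT and to 251 and 420 CPM in *Rag1*-/- pools 2 and 7. The median log2 fold change of these genes was -0.30, with 2 positive and 6 negative. No call was made among them, with *Notch3* at -1.40 (adjusted p = 0.122) and *Myh11* at -0.75 (adjusted p = 0.299, edgeR). Leukocyte genes moved the other way, with 15 of 21 rows called higher (3.57% of all genes were) and a median log2 fold change of 1.93, and the smallest p-values were those of *Itgb2* (2.10) and *Fermt3* (1.93). Of 14 ILC2 genes 4 were called higher, with the smallest p-values for *Thy1* (1.89) and *Il13* (2.36). The part of each cell type in the collagen levels was not tested.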

How the data were processed

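Poly(A) RNA of sorted dILC2s was sequenced by the authors as single reads with a kit that does not keep strand (5 libraries of pooled mice). Per the labels, reads were aligned to GRCm38 with STAR 2.5 and counted on genes with featureCounts 1.5.0-p1. The authors deposited raw counts per gene, the input of all results here, and a normalized signal per gene symbol, which by its values is the count times a factor for each library. Their transcript length column was not used. Exon lengths came from GENCODE M21 (GRCm38).

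Genotypes, taken from the sample titles, were compared on the whole table with edgeR 4.0.16 under R 4.3.3: filterByExpr, TMM, then the quasi-likelihood test, with p-values adjusted over 19011 genes by Benjamini-Hochberg at the study's thresholds. Standard errors and 95% intervals were derived from this fit, which had 7.15 degrees of freedom with its prior. With 3 pools against 2, an exact permutation test of 1 value has 10 splits and cannot go below p = 0.1. Scripts were tested on simulated data. Alternatives were DESeq2 1.42.0, limma 3.58.1 on the signal (log2, pseudocount 1), other scalings, no filter, and each library left out.

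Members and gene lists were chosen with earlier results of these data known. Values per library are given for *Col1a1*, *Col3a1*, *Col4a6*, called members, all *Col4* chains and the 3 most abundant members of each group, and other members may be named with a value. Each other list names the 2 genes with the smallest p-value, and the matrix lists also every called gene. *Lamc1* was added after its value was seen, as were genes named to show the spread within the fibroblast, keratinocyte and cartilage lists. For 2 genes of the other lists that this rule names, values are not reported here.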

Additional observations from a re-analysis of the deposited data

How the results depend on the processing

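With scaling on the leukocyte genes, the median log2 fold change was -2.12 over all genes tested (0.02 as reported) and -2.22 over the collagen genes (-0.02 as reported). Under it 38 collagen genes were called lower (67.4% of all genes), and 22 genes of collagen processing, 12 of breakdown, 7 receptors and 15 basement membrane partners were called. DESeq2 called 1 collagen gene higher (*Col10a1*) and no filter on low counts called 2 (*Col10a1* and *Col6a5*), and each called 1 breakdown gene. In all, 1090 genes were called as reported, 2453 with DESeq2, 2645 without the filter and 12823 with leukocyte scaling. With each library left out in turn, 0 to 5 collagen genes were called lower, and 0 to 4 processing genes, 0 to 1 receptors and 0 to 5 partners were called. The value 0 came from leaving out any 1 WT pool or *Rag1*-/- pool 2, where no gene of the table was called by edgeR and 3521 to 5200 genes had an unadjusted p under 0.05. When either *Rag1*-/- pool is left out, the lone remaining *Rag1*-/- library is assumed to vary like the WT group. Without pool 7 that library is pool 2, which had the fewest counts.

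Values near 0 changed sign. *Col4a1* was at -0.0048 with DESeq2, -0.0047 with RLE scaling, -0.0069 with library size alone, -0.0495 without the filter and -2.21 with leukocyte scaling, which also gave -2.11 for *Col6a1* and -1.99 for *Col6a2*. Under leukocyte scaling the median over all genes tested was -2.12, close to these values. With a library left out, log2 fold changes ranged from -0.10 to 0.17 for *Col4a1*, -0.15 to 0.10 for *Col4a2*, -0.35 to 0.16 for *Col3a1*, -0.0907 to 0.20 for *Col6a1* and -0.28 to 0.15 for *Col6a3*. The cause of the sign changes under the other settings was not tested. No paired analysis was possible because the groups share no replicate numbers. Depth limits scarce members in *Rag1*-/- pool 2.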
